A study of Mus musculus and Rattus norvegicus with 26 samples.

Results

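The introns described here divided mouse hippocampal neurons from mouse cells that are not neurons. A pair was 1 RefSeq transcript and the number of 1 of its introns. A neuronal pair was listed in both dendrites and somas of hippocampal neurons and in neither brown adipose tissue (BAT) cells nor cardiomyocytes. A non-neuronal pair was listed in both BAT cells and cardiomyocytes and in neither neuronal list. Of the 46599 pairs in the 4 mouse lists, 1350 were neuronal (2.90%) and 3400 were non-neuronal (7.30%). The pairs were chosen by their presence in these lists. Their presence and their read numbers are therefore given as a description with no test, and so is every feature that can decide whether an intron is listed at all.

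The RNA came from single cells or dissected cell parts and was copied by linear aRNA amplification, 3 rounds for each of the 21 mouse libraries. The neurons were primary cultures from hippocampi of C57BL/6 mice at embryonic day 18, from which pools of dendrites and single somas were taken by hand (3 dendrite and 3 soma libraries in the labels). The age is that at which the hippocampi were taken, and the neurons were grown in culture before harvest. A soma holds the nucleus, and cutting does not separate dendrites from axons. The 6 BAT cell libraries came from interscapular brown fat of CD-1 mice at embryonic day 17.5 from cells recognised by their shape after collagenase digestion. The 9 cardiomyocyte libraries came from ventricles of transgenic C57BL/6 mice at embryonic day 14.5, hemizygous for the Fucci cell cycle probe mAG-hGem under the cytomegalovirus promoter, whose cells were sorted for fluorescence and viability. The libraries of a condition are pooled in a single list, so no condition has replicates. The sample records name that list for the libraries of the condition. For both non-neuronal cell types the number of cells in the study's text is lower than the number of labelled libraries. Whether all of these libraries entered the list is therefore not certain. A neuronal pair had to be listed in dendrites, which the study expects to hold only RNA from outside the nucleus. BAT cells and cardiomyocytes were whole cells. Cell type, cell part, strain or transgene, age, culture, total intronic reads and the length of contigs made of 1 read differed together between the sides. Their parts in any difference cannot be told apart. Fewer cells that carry an RNA and less of it per cell cannot be told apart either.

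Introns are normally cut from a transcript in the nucleus by the spliceosome, which recognises a GT (at times GC) at the start of the intron and an AG at its end. A transcript that keeps intron sequence and reaches the cytoplasm is a cytoplasmic intron-sequence retaining transcript (CIRT). In neurons, retained intron sequence is known for carrying signals that bring some mRNAs into dendrites. Whole short introns that stay in the RNA are a common form of alternative splicing and often concern genes of RNA processing. A contig is a stretch of intron in which reads lie near each other. Contigs of 1 intron were at least 501 nt apart in the mouse lists, so shorter stretches without reads can lie inside a contig, and covered means spanned by contigs.

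The stretches below are picked examples, 5′ to 3′ on the strand of the gene, from the NCBIM37 (mm9) genome. The neuronal ones were picked with a run of A, and the non-neuronal ones as whole introns covered by contigs. Neither trait was found in most pairs of its side, as given further below, so the examples do not stand for their sides. For 3 neuronal pairs with high read numbers, the sequence is a part covered in both dendrites and somas followed by the next 50 nt, and capitals mark runs of at least 10 A, at which an oligo(dT) primer can anneal inside an intron. They lie in intron 8 of Nrxn3 (chr12:90499772-90500063, plus strand, a run of 45 A), intron 23 of D10Bwg1379e (chr10:18332585-18332884, minus strand, 16 A) and intron 8 of Reln (chr5:21622559-21622858, minus strand, 10 A). Among all contigs of these introns, those of Nrxn3 also touched an annotated exon of a transcript with a retained intron, and those of D10Bwg1379e and Reln touched none.
Nrxn3 intron 8: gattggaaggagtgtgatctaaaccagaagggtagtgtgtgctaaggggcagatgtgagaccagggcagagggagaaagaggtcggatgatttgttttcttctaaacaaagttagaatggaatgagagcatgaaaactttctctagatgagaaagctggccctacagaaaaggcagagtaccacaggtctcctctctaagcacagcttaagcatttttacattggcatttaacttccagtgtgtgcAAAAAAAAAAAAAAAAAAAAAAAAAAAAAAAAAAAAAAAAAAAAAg
D10Bwg1379e intron 23: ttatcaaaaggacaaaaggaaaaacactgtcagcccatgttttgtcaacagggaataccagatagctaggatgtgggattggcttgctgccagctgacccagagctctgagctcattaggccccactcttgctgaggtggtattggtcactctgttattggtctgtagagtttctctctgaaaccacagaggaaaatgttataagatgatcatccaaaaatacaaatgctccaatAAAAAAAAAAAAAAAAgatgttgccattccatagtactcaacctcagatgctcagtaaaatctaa
Reln intron 8: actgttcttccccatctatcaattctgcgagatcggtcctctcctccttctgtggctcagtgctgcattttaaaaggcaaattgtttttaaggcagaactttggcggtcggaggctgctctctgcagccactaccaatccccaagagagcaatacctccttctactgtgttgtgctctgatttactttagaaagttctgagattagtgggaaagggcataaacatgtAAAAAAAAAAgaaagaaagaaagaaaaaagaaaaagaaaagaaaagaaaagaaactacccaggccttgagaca

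For 3 non-neuronal pairs, the sequence is a whole annotated intron, and capitals mark its first and last 2 bases, the splice sites. They are intron 7 of Rpl9 (chr5:65779681-65779800, minus strand, 120 nt, the last intron of the transcript), intron 12 of Xrn2 (chr2:146855521-146855604, plus strand, 84 nt) and intron 10 of Hnrnpu (chr1:180260978-180261223, minus strand, 246 nt, which begins with GC). Contigs covered 99.2% of the intron in Rpl9, 98.8% in Xrn2 and 99.6% in Hnrnpu. In Rpl9 and Xrn2 they touched an exon that the annotation gives to a transcript with a retained intron, and in Hnrnpu they touched no annotated exon.
Rpl9 intron 7: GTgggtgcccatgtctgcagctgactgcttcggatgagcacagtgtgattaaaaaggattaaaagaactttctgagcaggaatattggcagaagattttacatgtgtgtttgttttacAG
Xrn2 intron 12: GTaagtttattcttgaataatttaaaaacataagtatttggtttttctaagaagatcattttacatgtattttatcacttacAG
Hnrnpu intron 10: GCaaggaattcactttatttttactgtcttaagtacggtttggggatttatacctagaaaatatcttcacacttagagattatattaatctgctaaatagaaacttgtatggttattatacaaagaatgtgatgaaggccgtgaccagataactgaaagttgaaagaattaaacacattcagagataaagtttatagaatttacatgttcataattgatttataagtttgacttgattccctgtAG

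Cox11, an assembly factor of the respiratory chain's cytochrome c oxidase, kept 1 intron in neurons and its neighbour in the other cells. Capitals mark the last 200 nt of the stretch covered in both lists of a side, with 20 nt on either side in lower case. The 2 stretches lie at chr11:90501210-90501449 in intron 1 and at chr11:90503462-90503701 in intron 2, both on the plus strand.
Cox11 intron 1, dendrites and somas: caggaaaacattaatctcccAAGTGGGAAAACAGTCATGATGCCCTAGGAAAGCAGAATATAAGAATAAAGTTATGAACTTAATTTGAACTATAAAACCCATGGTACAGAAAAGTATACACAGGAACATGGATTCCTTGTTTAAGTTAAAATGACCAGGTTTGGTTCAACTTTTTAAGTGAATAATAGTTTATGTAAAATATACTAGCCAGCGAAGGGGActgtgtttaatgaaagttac
Cox11 intron 2, BAT cells and cardiomyocytes: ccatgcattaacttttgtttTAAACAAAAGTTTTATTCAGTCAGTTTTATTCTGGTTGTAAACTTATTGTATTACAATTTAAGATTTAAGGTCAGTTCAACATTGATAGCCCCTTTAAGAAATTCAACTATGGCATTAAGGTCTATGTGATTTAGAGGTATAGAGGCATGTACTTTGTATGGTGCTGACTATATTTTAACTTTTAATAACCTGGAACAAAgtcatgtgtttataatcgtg

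The lists differed in size. The dendrite list held 19477 pairs, the soma list 10568, the BAT list 30018 and the cardiomyocyte list 13056, with 3086576, 1855447, 17858440 and 12201042 intronic reads in all. A pair carries 1 read number per list, which is not normalised, and read numbers are not compared between lists as levels. Contigs made of 1 read were 52 and 50.5 nt long in the neuronal lists and 99 and 93 nt in the BAT and cardiomyocyte lists (medians). The methods give a single read length and refer the BAT cells and cardiomyocytes to the same sequencing, so what the longer contigs of 1 read in their lists stand for is not known here. Only 7 and 2 contigs of the neuronal lists rested on 1 read, against 551 in BAT cells and 367 in cardiomyocytes.

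Markers of each cell type were looked up in the lists, although an intron list shows only genes with retained sequence. Of all 12467 listed genes, 8607 were in the dendrite list, 5895 in the soma list, 10220 in the BAT list and 6205 in the cardiomyocyte list. Of 12 neuron markers, 9 were in the dendrite list, 10 in the soma list and 9 in the BAT list, and 1 was in the cardiomyocyte list. Their summed intronic reads were 1179, 11362, 25464 and 2, and in the BAT list they lay largely in Mtap2 (10406 reads), Syt1 (8127 reads), Rbfox1 (3875 reads) and Snap25 (2754 reads). Of 13 cardiomyocyte markers, 11 were in the cardiomyocyte list (447102 reads), 9 in the dendrite list (4528 reads), 4 in the soma list (1973 reads) and 8 in the BAT list (65303 reads). In the BAT list 26804 of these reads lay in Nkx2-5, a cardiac transcription factor that the cardiomyocyte list did not hold. Of 10 brown adipocyte markers the lists held 5, 2, 8 and 3, with 1275, 4, 155588 and 3505 reads. Ucp1, the uncoupling protein of brown fat, had 6596 reads in BAT cells and 899 in cardiomyocytes, and Cidea, a lipid droplet protein, had 1548 and 2600. An intron listed in BAT cells cannot be a neuronal pair, so these genes could enter the neuronal side only with other introns, and the part of neuron markers in the counts was not tested.

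Markers of cells that could be mixed in were fewer in the cardiomyocyte list than in the BAT list, except those of microglia, which neither list held. The BAT list also held more genes in all. Astrocyte markers (6 looked up) numbered 4, 3, 4 and 0 in dendrites, somas, BAT cells and cardiomyocytes, oligodendrocyte markers (5) 2, 1, 2 and 0, microglia markers (4) 1, 0, 0 and 0, fibroblast markers (5) 3, 1, 5 and 0, endothelium markers (5) 4, 4, 5 and 2 and blood markers (4) 2, 1, 3 and 2. Among the pairs themselves, 3 neuron markers and 1 endothelium marker hosted a neuronal pair. The non-neuronal pairs took in 5 cardiomyocyte markers and 1 marker each of brown adipocytes, endothelium and blood. Over all listed genes 9.53% hosted a neuronal and 19.0% a non-neuronal pair, and with so few markers of a type nothing is read from these counts.

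Neuronal pairs made up 6.93% of the pairs of the dendrite list and 12.8% of those of the soma list. Non-neuronal pairs made up 11.3% of the BAT list and 26.0% of the cardiomyocyte list. The 1723 pairs in all 4 lists outnumbered the neuronal pairs, and so did the pairs shared by dendrites and BAT cells alone (4375). Most pairs were listed once, with 14666 in BAT cells alone and 7411 in dendrites alone. Pairs just outside the rule were in both lists of a side and in 1 list of the other side with at most 2 reads. There were 220 of these for the neuronal side and 388 for the non-neuronal side. In the study's own analysis of whole cells, long contigs were left out to limit nuclear RNA. With contigs of at most 400 nt in somas, BAT cells and cardiomyocytes and all contigs in dendrites, 1465 pairs were neuronal and 1845 non-neuronal. The median mean of both lists was then 57 reads on the neuronal side and 37.5 on the other.

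**Figure D1:**
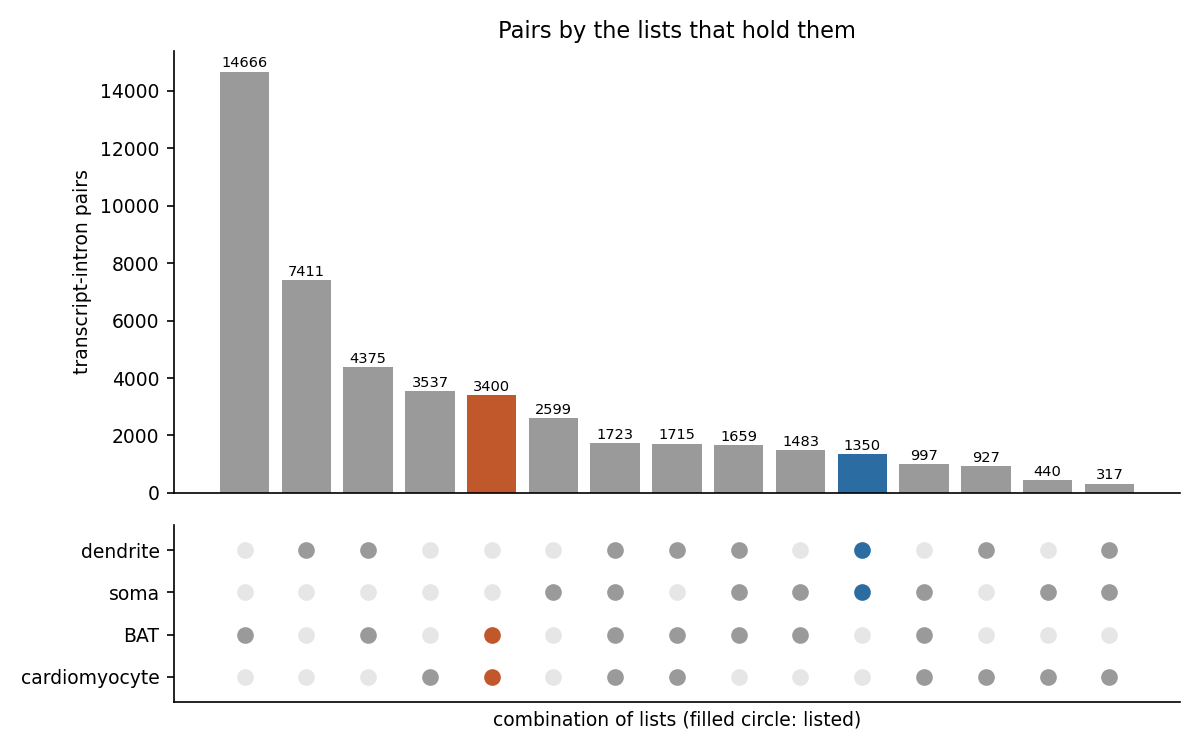
Number of transcript and intron pairs (y axis) for each combination of the 4 mouse lists (filled circles under a bar). The blue bar holds the 1350 neuronal pairs and the orange bar the 3400 non-neuronal pairs, and the tallest bar holds the 14666 pairs of BAT cells alone.

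The neuronal pairs lay in 1188 genes (9.53% of the 12467 listed genes) and the non-neuronal pairs in 2373 genes (19.0%). A single pair was the rule in neurons, with 88.6% of host genes against 72.1% on the non-neuronal side. Of the neuronal hosts 17 had 3 or more pairs and none more than 6. Of the non-neuronal hosts 213 had 3 or more, and Ttn had 14.

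Many pairs had few reads in 1 of their 2 lists. The median of the mean of both lists was 69.5 reads for neuronal pairs (95% interval of the median 63.5 to 76.5, n = 1350) and 80.5 for non-neuronal pairs (71.5 to 90.5, n = 3400). All intervals cover counting error only, since reads amplified from 1 cell, introns of 1 gene and contigs of 1 intron are not independent. In the list where a pair had fewer reads, the median was 4 reads on the neuronal side and 12 on the non-neuronal side. At most 2 reads in 1 of the lists stood behind 474 neuronal pairs (35.1%, interval 32.6 to 37.7) and 578 non-neuronal pairs (17.0%, 15.8 to 18.3). At the other end, 259 neuronal pairs (19.2%) and 1099 non-neuronal pairs (32.3%) had at least 32 reads in both lists.

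Read numbers can be set against the rest of the same list. Neuronal pairs had a median of 48 reads in dendrites (quartiles 8 and 213, rest 24) and of 13.5 in somas (2 and 88, rest 23). Non-neuronal pairs had a median of 41 reads in BAT cells (quartiles 10 and 207.2, rest 28) and 33 in cardiomyocytes (6 and 271.2, rest 64). On both sides the median of the members lay above that of the rest in the list with more pairs and below it in the list with fewer.

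**Figure D2:**
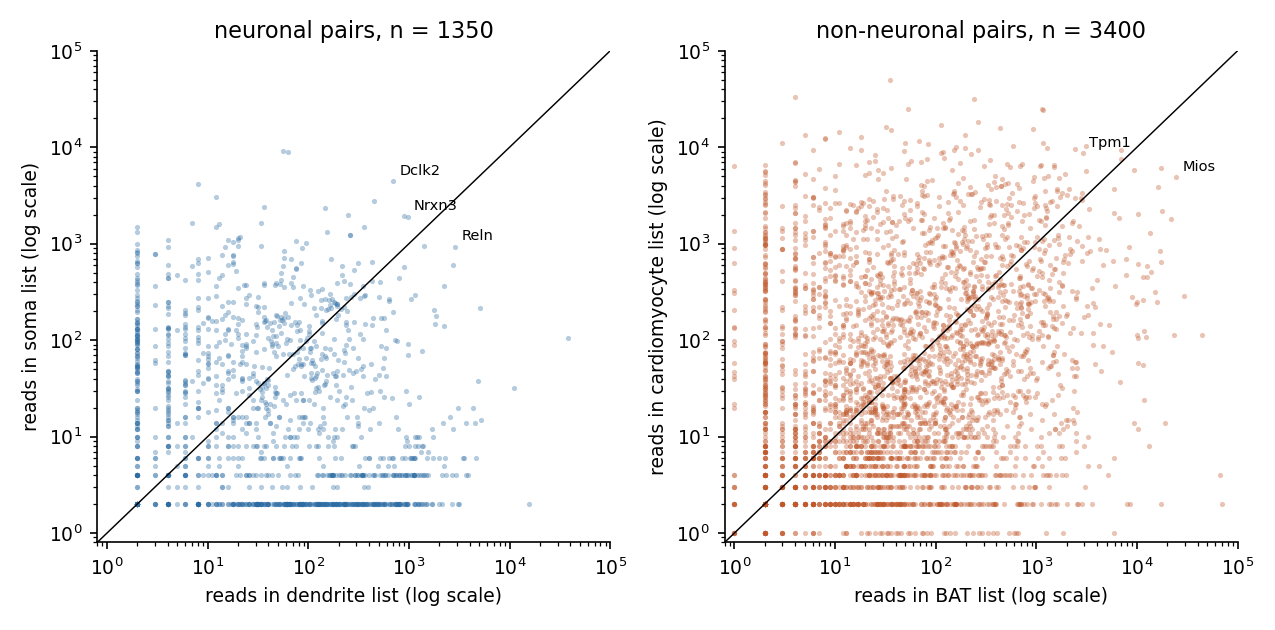
Reads of each pair in its 2 lists on log axes, with dendrites (x) against somas (y) for the 1350 neuronal pairs on the left and BAT cells (x) against cardiomyocytes (y) for the 3400 non-neuronal pairs on the right; the line marks equal reads. The rows of points at 2 and 4 reads along both axes are pairs that are thinly covered in 1 list, and Reln, Nrxn3 and Dclk2 lie far from them.

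Neuronal pairs were ranked by the smaller of their counts in the 2 lists, and the leading ones are given here. Intron 8 of Nrxn3, a presynaptic adhesion molecule, had 975 reads in dendrites and 1911 in somas. Intron 10 of Astn2, which acts in the migration of young neurons along glia, had 1401 and 953 reads. Intron 8 of Reln, the secreted protein reelin that guides neurons to their layer, had 2889 and 930 reads. Intron 7 of Kcnh7, an ERG potassium channel, had 898 and 1927 reads. Intron 2 of Dclk2, a doublecortin-like kinase that binds microtubules, had 699 reads in dendrites and 4472 in somas, on 7 and 11 contigs spread over an intron of 69477 nt. The shortest of these 5 introns, in Kcnh7, had 9908 nt, and contigs covered between 4.58% (Nrxn3) and 32.9% (Kcnh7) of them.

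The other 5 of the 10 were shorter. Smndc1, a splicing factor, had 2725 reads in dendrites and 603 in somas in intron 3, which has 735 nt and was 99.9% covered. Fez1, an adaptor of kinesin transport in axons, had 890 and 574 reads in intron 1. Rock1, a kinase that acts on the actin cytoskeleton, had 449 and 2784 reads in intron 26. Magi1, a scaffold of cell junctions and synapses, had 788 and 445 reads in intron 20, and D10Bwg1379e had 430 and 642 in intron 23. In all 10 the contigs of dendrites and somas overlapped in position.

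The highest read numbers of single lists belonged to pairs with far fewer reads in the other list, and they are named here after their values were seen. Zbtb49, a zinc finger gene, reached 37928 reads in dendrites and 106 in somas in intron 3. Pde10a, a cyclic nucleotide phosphodiesterase, reached 9139 in somas and 56 in dendrites in intron 2. Kdm6a, a histone demethylase, had 69619 reads in BAT cells and 2 in cardiomyocytes in intron 7. Magi3, a scaffold related to Magi1, had 50304 reads in cardiomyocytes and 35 in BAT cells in intron 4. In these 4 pairs almost all reads lay in 1 list.

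Non-neuronal pairs were ranked in the same way. Chd1, a chromatin remodeller, had 6972 reads in BAT cells and 9326 in cardiomyocytes in intron 5. Mbnl2, a muscleblind regulator of splicing, had 6967 and 7533 reads in intron 7. Usp22, a deubiquitinase of histones, had 17448 and 6064 reads in intron 1, the first of its transcript. Mios, a part of the nutrient-sensing GATOR2 complex, had 24590 and 4874 reads in intron 4, and Pon3, a paraoxonase, 16107 and 3844 in intron 5. Pcmtd2 had 5922 and 3706 reads in intron 5.

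Adamts6, a metalloprotease of the extracellular matrix, had 9416 and 5779 reads in intron 12, but the contigs of the 2 lists lay apart, at chr13:105180859-105182240 in BAT cells and chr13:105185574-105186237 in cardiomyocytes. In the other 9 the contigs of BAT cells and cardiomyocytes overlapped. Pdlim5, a protein of the Z disc, had 3132 reads on 10 contigs in BAT cells and 10252 on 8 contigs in cardiomyocytes in intron 3. Tpm1, the thin filament protein tropomyosin, had 2910 and 8637 reads in intron 1. Rpl9, a protein of the large ribosomal subunit, had 3120 and 5630 reads in the 120 nt of its last intron.

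A single contig in each list was found for 1018 neuronal pairs (75.4%, interval 73.0 to 77.6) and for 2497 non-neuronal pairs (73.4%, 71.9 to 74.9). With a minimum of 32 reads for an intron to be listed the shares were 51.05% and 59.1%, so that their order turned, as it did under limits on contig length and with positions in place of intron numbers. By list, 81.2% of the neuronal pairs had 1 contig in dendrites (79.9% in the rest of that list) and 90.8% in somas (rest 85.2%). For non-neuronal pairs the shares were 79.6% in BAT cells (rest 77.5%) and 89.3% in cardiomyocytes (rest 83.9%). Introns with 3 or more contigs numbered 44 in dendrites, 18 in somas, 155 in BAT cells and 45 in cardiomyocytes, with at most 7, 11, 10 and 8 contigs. The median contig of the members had 284, 257, 310 and 271 nt in these lists.

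Single contigs were also counted among introns of like length. Among introns of 1000 to 10000 nt, 79.9% of 1029 neuronal pairs (interval 77.3 to 82.2) and 64.7% of 2029 non-neuronal pairs (62.6 to 66.7) had 1 contig in each list. Below 1000 nt the shares were 98.9% and 99.7%, and from 10000 nt 42.0% (35.4 to 48.9) and 32.1% (26.7 to 38.1), with overlapping intervals. The mean of both lists had a median of 66 reads for the neuronal pairs of the middle class and 122.5 for the non-neuronal ones, and the part of read number in the difference was not tested.

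The 2 lists of a side often covered the same place in the intron. Contigs overlapped in position for 870 neuronal pairs (64.4%, interval 61.9 to 67.0) and 2469 non-neuronal pairs (72.6%, 71.1 to 74.1). Of pairs in both lists of a side and also in a list of the other side, 55.6% of 3699 overlapped in neurons and 59.7% of 4435 in the other cells. By length the shares were 94.6% and 96.4% below 1000 nt, 65.5% and 64.9% from 1000 to 10000 nt and 45.0% (38.3 to 51.9) and 36.1% (30.4 to 42.2) from 10000 nt. Where contigs did not overlap, as in introns 10 and 18 of Col25a1, the 2 lists hold different stretches of 1 intron.

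Introns of the 2 sides differed in length. The annotation placed 1321 neuronal and 3352 non-neuronal pairs. Neuronal introns had a median of 3820 nt (quartiles 2029 and 7129) and non-neuronal ones 1950.5 nt (720.2 and 4177.8), against 2614 nt over all 45835 placed pairs. Introns under 1000 nt made up 6.96% of the neuronal pairs (interval 5.71 to 8.47) and 31.95% of the non-neuronal pairs (30.4 to 33.6), against 19.3% of all. Introns of at least 10000 nt made up 15.1% and 7.52%, against 12.7% of all. The whole lists showed the same order, with introns under 1000 nt at 8.86% of the dendrite list, 12.1% of the soma list, 20.7% of the BAT list and 21.1% of the cardiomyocyte list. GC content was alike, with medians of 42.5% and 42.3%.

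Contigs often spanned the whole intron on the non-neuronal side. Contigs of the 2 lists together covered at least 90% of the intron in 1036 non-neuronal pairs (30.9%, interval 29.4 to 32.5) and in 16 neuronal pairs (1.21%, 0.747 to 1.96), against 9.47% of all placed pairs. For all placed pairs the contigs were those of every list that held the pair, often a single list. Each list alone filled the intron in 592 non-neuronal and 3 neuronal pairs. Contigs reached within 5 nt of both ends of the intron in 39.4% of non-neuronal pairs and 1.29% of neuronal pairs. The median intron was 38.5% covered on the non-neuronal side and 15.6% on the neuronal side.

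The sides also differed among introns of like length. Introns under 1000 nt were filled in 865 of 1071 non-neuronal pairs (80.8%, interval 78.3 to 83.0) and in 13 of 92 neuronal pairs (14.1%, 8.45 to 22.7). An intron shorter than the joining distance can be spanned by reads near its ends alone. From 1000 to 10000 nt introns were filled in 171 non-neuronal pairs (8.43%) and 3 neuronal pairs (0.292%). Whole lists differed in the same direction, with 1.16% of introns filled in dendrites, 2.82% in somas, 11.98% in BAT cells and 11.2% in cardiomyocytes. Contigs reached an end of the intron in 11.8%, 17.1%, 36.9% and 37.5% of pairs in these lists. The length of contigs made of 1 read moved with these values, and its part was not tested.

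**Figure D3:**
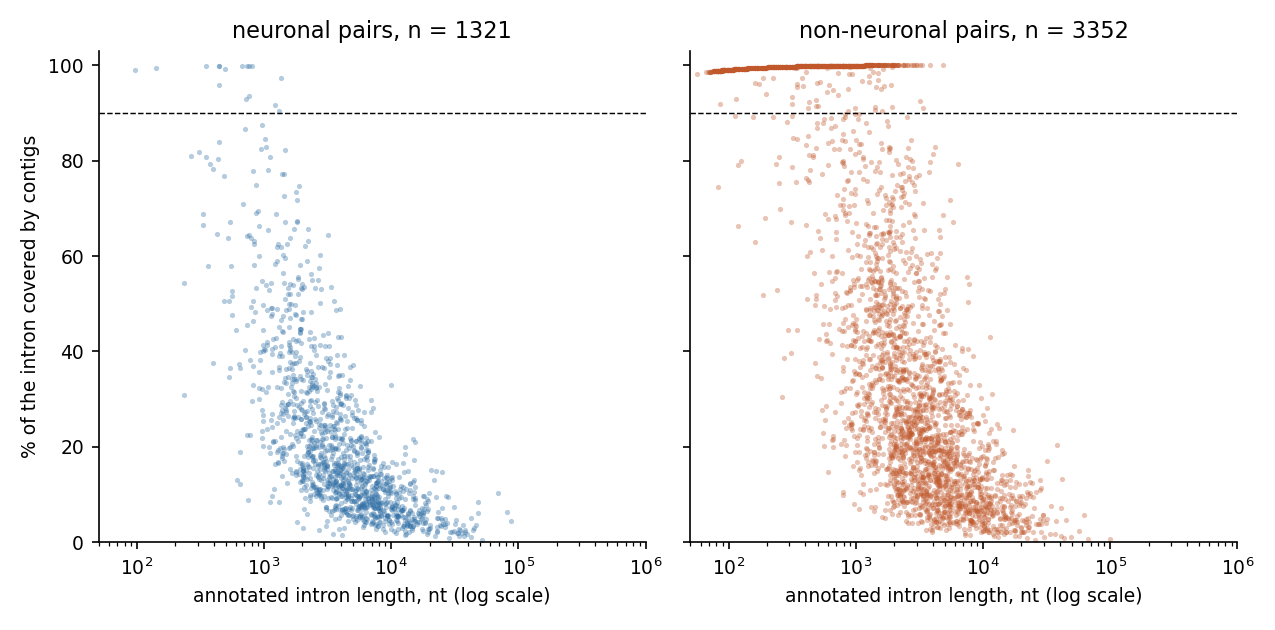
Share of each intron covered by the contigs of both lists of its side (y axis, %) against the annotated length of the intron (x axis, nt, log scale) for 1321 neuronal and 3352 non-neuronal pairs; the dashed line marks 90%. The band along the top on the right is formed by the 1036 filled non-neuronal introns, and only 16 neuronal pairs reach that height.

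Position in the transcript also differed. The last intron of a transcript made up 18.7% of the non-neuronal pairs (interval 17.4 to 20.03) and 7.95% of the neuronal pairs (6.61 to 9.53), against 10.3% of all. First introns were 6.13% of neuronal and 6.50% of non-neuronal pairs, against 7.37% of all. Introns past the middle of the transcript made up 47.7% and 60.1%, against 52.0% of all. The host transcripts had a median of 15 introns on the neuronal side and 12 on the non-neuronal side.

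Runs of at least 10 A were sought on the strand of the gene, from the start of the first contig to the end of the last. The search took in the gaps between contigs, which hold no listed reads, and up to 300 nt downstream within the intron. A run was found for 39.8% of neuronal pairs (interval 37.2 to 42.5), 27.8% of non-neuronal pairs (26.3 to 29.4) and 27.3% of all. For all pairs, here and below, the contigs were those of every list that held the pair. Within length classes the shares were 37.03% and 35.04% from 1000 to 10000 nt (all listed 26.2%) and 63.0% and 62.7% from 10000 nt (all 62.5%). Below 1000 nt they were 20.7% and 5.98% (all 8.26%), so the sides lay close in the longer classes and apart in the shortest. A run is a description of the sequence and not a priming site. The contigs touched an annotated exon of another transcript in 8.48% of neuronal and 16.6% of non-neuronal pairs (all 10.5%), an exon of a transcript annotated as retaining an intron in 4.16% and 8.95% (all 5.37%), and a small RNA gene in 2 and 13 pairs.

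Host genes were set against 13 lists of genes with known functions. Counts are genes of a list that host a pair of a side, out of those with any listed intron, and over all 12467 listed genes the shares were 9.53% for neuronal and 19.0% for non-neuronal hosts. The genes of each function list had a median of 3 to 7 listed introns against 3 over all genes, and longer or more often listed genes have more chances to host a pair. The counts describe these lists and were not tested. Genes of the synapse and of neuronal adhesion hosted neuronal pairs at shares from 25.7% to 32.4%, and genes of muscle, fat and the cell cycle hosted non-neuronal pairs at shares from 32.2% to 39.2%.

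Of 37 listed glutamate and GABA receptor genes, 12 (32.4%) hosted a neuronal pair and 1 a non-neuronal pair. Gabra2, an alpha subunit of the GABA-A receptor, had 325 reads in dendrites and 117 in somas in intron 8, on contigs that did not overlap. Grin3a, a subunit of NMDA receptors, had 74 and 54 reads in intron 5, and Gria3, an AMPA receptor subunit, had 21 and 56 in intron 14. These 3 spread over receptors of inhibition and excitation.

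Of 40 listed genes of presynaptic release, 11 (27.5%) hosted a neuronal pair and 2 a non-neuronal pair. Rph3a, the vesicle protein rabphilin, had 214 reads in dendrites and 588 in somas in intron 5. Ppfia2, a liprin of the active zone, had 242 and 200 reads in intron 8. Rimbp2, which links RIM proteins to calcium channels, had 174 and 268 in intron 14. All 3 had overlapping contigs in dendrites and somas. On the non-neuronal side Unc13c, a priming factor of vesicles, had 18 reads in BAT cells and 2439 in cardiomyocytes in intron 26.

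Of 35 listed genes of postsynaptic scaffolds and signalling, 9 (25.7%) hosted a neuronal pair and 7 (20%) a non-neuronal pair. With at least 32 reads for an intron to be listed the order turned, with 9.09% and 18.2%, against 4.52% and 14.5% of all listed genes. Beside Magi1, neuronal hosts included Magi3 (145 reads in dendrites and 35 in somas, intron 14) and Grip1, which binds AMPA receptors (48 and 28, intron 17). The non-neuronal hosts were led by the calcium and calmodulin dependent kinase genes Camk2d (2513 reads in BAT cells and 1056 in cardiomyocytes, intron 12) and Camk2b (236 and 310, intron 3). Camk2d is also the main form of this kinase in heart. Gphn, the gephyrin scaffold, had 190 and 358 reads in intron 21.

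Of 35 listed sodium, calcium and potassium channel genes of neurons, 9 (25.7%) hosted a neuronal pair and 4 (11.4%) a non-neuronal pair. With contigs of at most 400 nt in every list the order turned, with 14.7% and 17.6%, against 7.92% and 13.8% of all listed genes. After Kcnh7 came Kcnt2, a sodium-activated potassium channel (431 reads in dendrites and 414 in somas, intron 7), Scn2a1, a voltage-gated sodium channel (96 and 1013, intron 20), and Cacna2d3, an auxiliary calcium channel subunit (54 and 120, intron 18). Non-neuronal hosts were Kcnh7 itself in intron 4, Kcnq5 (3 reads in BAT cells and 83 in cardiomyocytes), Cacna2d1 (2 and 74) and Cacna2d2 (2 and 337). The last 3 thus rested on 2 or 3 reads in BAT cells.

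Axon guidance and neuronal adhesion genes gave the most neuronal hosts, 20 of 63 listed (31.7%), with 11 non-neuronal hosts (17.5%). The hosts included genes of contactins, adhesion molecules of the neuronal surface. They were Cntn5 (82 reads in dendrites and 126 in somas, intron 23), which also held a non-neuronal pair in intron 9 (264 in BAT cells and 267 in cardiomyocytes), Cntn1 (135 and 64, intron 14) and Cntn4 (57 and 149, intron 13). Chl1, a relative of L1, had 71 reads in each list in intron 11. On the non-neuronal side Nrp1, a semaphorin and VEGF co-receptor that endothelium also carries, had 238 reads in BAT cells and 31862 in cardiomyocytes in intron 8. Lphn2 had 84 and 1010 reads in intron 10 and Sema6d 30 and 373 in intron 18. Of 38 cytoskeleton genes of dendrites and axons, 5 (13.2%) hosted pairs of each side, led by Dclk2 and Spnb4 (115 reads in dendrites and 97 in somas, intron 31) on the neuronal side and Kif5b (95 in BAT cells and 151 in cardiomyocytes, intron 13) on the other.

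These shares moved with the filters, and so did those over all listed genes. With at least 32 reads for an intron to be listed, all listed genes hosted neuronal pairs at 4.52% and non-neuronal pairs at 14.5%. Neuronal hosts were then 18.2% of the glutamate and GABA receptor genes, 25% of presynaptic, 16.1% of channel, 17.2% of guidance and adhesion and 2.99% of matrix genes. Non-neuronal hosts were 31.2% of sarcomere, 25.8% of cardiac and 19.3% of brown fat and lipid genes. With contigs of at most 400 nt in every list, where all listed genes had 7.92% and 13.8%, neuronal hosts were 19.4% of the receptor genes and 14.3% of the guidance and adhesion genes. Non-neuronal hosts were then 24% of sarcomere, 21.9% of brown fat and lipid, 18.6% of matrix, 21.8% of cell cycle and 21.1% of RNA genes.

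**Figure D4:**
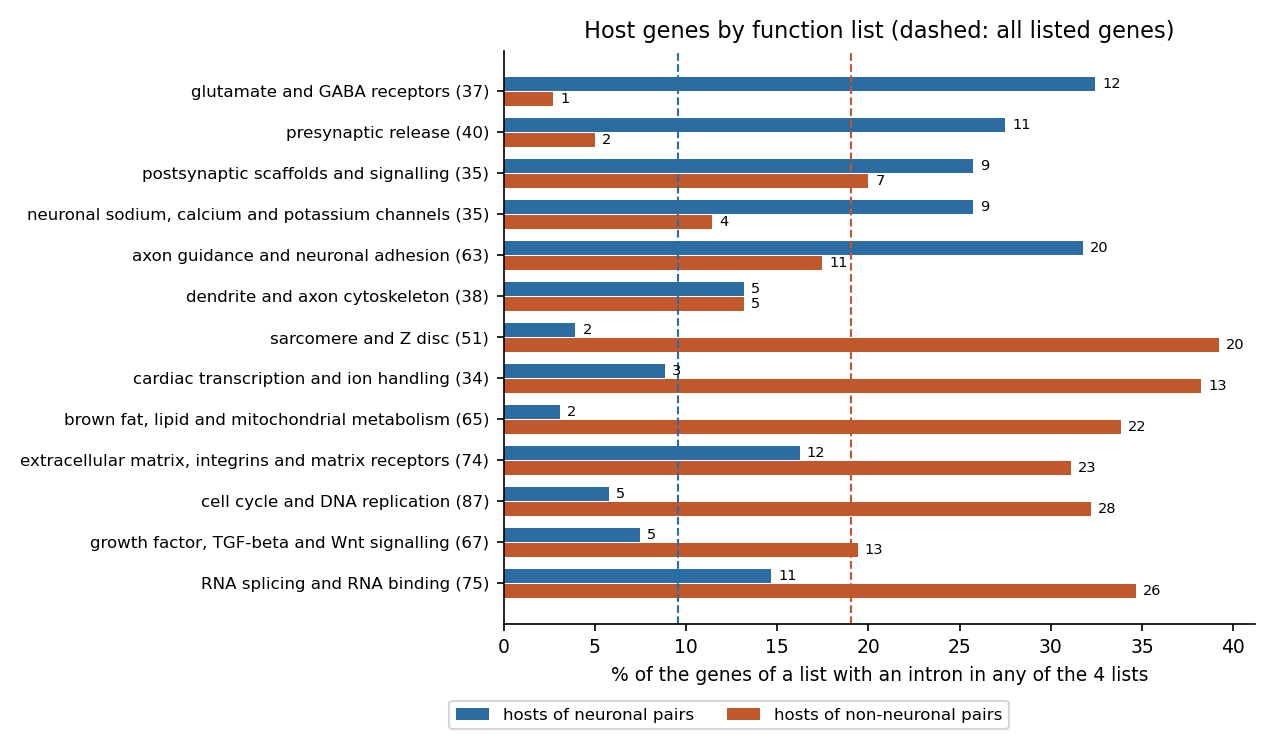
Share of the listed genes of each function list (number of listed genes in brackets) that host a neuronal pair (blue) or a non-neuronal pair (orange), with the number of hosts beside each bar and the shares over all listed genes as dashed lines (9.53% and 19.0%). The upper 5 lists reach 25.7% to 32.4% in blue, and sarcomere genes reach 39.2% in orange.

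Of 51 listed genes of the sarcomere and Z disc, 20 (39.2%) hosted a non-neuronal pair and 2 a neuronal pair. After Pdlim5 and Tpm1 came Trim55, a ubiquitin ligase of the M band (1663 reads in BAT cells and 4790 in cardiomyocytes, intron 8), Palld, an actin bundling protein (1279 and 9749, intron 12), and Myom1, the M band protein myomesin (1136 and 25157, intron 18). Among the 5, the lowest number in BAT cells was the 1136 reads of Myom1. The 2 neuronal hosts were Neb, the thin filament protein nebulin (65 reads in dendrites and 72 in somas, intron 130), and Mybpc2 (6 and 4, intron 26).

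Of 34 listed genes of cardiac transcription and ion handling, 13 (38.2%) hosted a non-neuronal pair and 3 a neuronal pair. Slc8a1, the sodium and calcium exchanger, had 918 reads in BAT cells and 15369 in cardiomyocytes in intron 10. Gata6, a cardiac transcription factor, had 384 and 4349 in intron 4. Trdn, the triadin of the calcium release complex, had 13882 and 511 in intron 7. Trdn also hosted a neuronal pair, with 53 reads in dendrites and 424 in somas in intron 24.

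Of 65 listed genes of brown fat, lipid and mitochondrial metabolism, 22 (33.8%) hosted a non-neuronal pair and 2 a neuronal pair. Pdk4, a kinase that switches fuel use toward fat, had 1240 reads in BAT cells and 1888 in cardiomyocytes in intron 3. Hadha and Acadl, enzymes of fatty acid oxidation, had 8356 and 928 reads in intron 7 and 1097 and 699 in intron 9. Pdk1 had 590 and 747 reads in intron 5. The neuronal hosts were Lpin2 (37 reads in dendrites and 16 in somas, intron 8) and Acly (10 and 18, intron 11), both thinly covered.

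Matrix and integrin genes hosted pairs of both sides, 12 of 74 (16.2%) neuronal and 23 (31.1%) non-neuronal. Lama4, a laminin chain, had 1501 reads in BAT cells and 1103 in cardiomyocytes in intron 8, Itga1, an integrin for collagen, 975 and 3087 in intron 8, and Adamts9 699 and 1168 in intron 12. On the neuronal side Col25a1, a collagen of neurons, had 57 reads in dendrites and 359 in somas in intron 10, Itga8 239 and 26 in intron 11, and Hmcn1 75 and 24 in intron 75.

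Of 87 listed genes of the cell cycle and DNA replication, 28 (32.2%) hosted a non-neuronal pair and 5 (5.75%) a neuronal pair. With at least 32 reads the non-neuronal share was 15.1%, against 14.5% of all listed genes. Rfc1, the clamp loader of replication, had 1822 reads in BAT cells and 652 in cardiomyocytes in intron 12, Dtl, an adaptor of replication control, 643 and 4196 in intron 11, Kif11, the spindle motor, 235 and 284 in intron 16, and Smc2, a condensin subunit, 494 and 112 in intron 17. Neuronal hosts included Fanci (526 reads in dendrites and 168 in somas, intron 12) and the cohesin gene Rad21 (16 and 246, intron 8).

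Of 67 listed genes of growth factor, TGF-beta and Wnt signalling, 13 (19.4%) hosted a non-neuronal pair and 5 (7.46%) a neuronal pair. With at least 32 reads the non-neuronal share was 5.08%, below that of all listed genes. Ltbp1, which holds TGF-beta in the matrix, had 1446 reads in BAT cells and 2762 in cardiomyocytes in intron 16, and Ctnnb1, the beta-catenin of the Wnt pathway, 329 and 4085 in intron 10. Of 75 RNA splicing and binding genes, 26 (34.7%) hosted a non-neuronal pair and 11 (14.7%) a neuronal pair. By position in place of intron number the neuronal share was 25.3%. After Mbnl2, the non-neuronal hosts included the polyadenylation element binder Cpeb1 (491 reads in BAT cells and 4198 in cardiomyocytes, intron 9). The neuronal hosts included the mRNA binder Igf2bp3 (163 reads in dendrites and 229 in somas, intron 6), the splicing factor Srsf11 (57 and 170, intron 5), Elavl2, a neuronal Hu protein (42 and 149, intron 6), and Rbfox1, a neuronal splicing regulator (47 and 29, intron 12).

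Some genes held several neuronal pairs. Syne1, the giant nesprin of the nuclear envelope, had 6 neuronal pairs of 31 listed, Dnahc8, an axonemal dynein chain, 5 of 35, and Astn2, Col25a1, Lrp1b, Ptprz1 and Reln 4 each, so that the place of the fifth gene was shared. In Astn2 dendrites had 2231, 264, 1401 and 136 reads in introns 2, 5, 10 and 19, and somas 368, 279, 953 and 159. In Reln, intron 8 was followed by introns 13, 14 and 50 with 2, 8 and 2 reads in dendrites and 2, 488 and 74 in somas. The 4 introns of Lrp1b, a receptor of the LDL family, had non-overlapping contigs in dendrites and somas. In the tyrosine phosphatase gene Ptprz1 all 4 overlapped.

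Ttn, the giant sarcomere protein titin, had 14 non-neuronal pairs of 57 listed. Its introns ranged from 2 to 1323 reads in BAT cells and from 33 to 10974 in cardiomyocytes, and intron 9 had 1323 and 970. The genes that followed held 9 or 8 pairs each. Smc6, a part of the SMC5/6 complex, had 9 of 15 listed, Hnrnpu, which binds RNA in the nucleus, 8 of 9, and Xrn2, the nuclear exoribonuclease, 8 of 14. In Hnrnpu all 8 introns, from 87 to 437 nt long, were between 98.9% and 99.8% covered. In Smc6 5 of 9 introns were at least 98.9% covered. In intron 12 of Xrn2, 153 reads in BAT cells and 9391 in cardiomyocytes lay within 84 nt.

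Genes that switched intron between the sides numbered 213 (1.71% of the listed genes). They were 17.9% of the neuronal hosts (interval 15.9 to 20.2) and 8.98% of the non-neuronal hosts (7.89 to 10.2). Over all listed genes 19.0% hosted a non-neuronal pair and 9.53% a neuronal pair, so these shares were near the background and the genes that follow are a description. For 207 of them a neuronal and a non-neuronal intron belonged to 1 transcript. In 21 the introns were neighbours, and in 98 of 206 genes (47.6%, 40.9 to 54.4) whose leading introns shared a transcript the neuronal intron lay upstream. At least 32 reads in all 4 lists were found for 16 genes.

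Ranked by the smallest of the 4 counts, the first switch was in Syne1, which had 285 reads in dendrites and 535 in somas in intron 10 of NM_153399 and 266 in BAT cells and 9457 in cardiomyocytes in intron 16 of NM_022027. Rock1 had 449 and 2784 reads in intron 26 in neurons and 254 and 208 in intron 24 in the other cells. Kcnh7 had 898 and 1927 reads in intron 7 against 186 and 2514 in intron 4. Each of these 3 genes had further introns in lists of both sides.

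Cox11 switched completely. Intron 1 had 246 reads in dendrites and 128 in somas, intron 2 had 351 in BAT cells and 753 in cardiomyocytes, and besides these intron 3 was listed in cardiomyocytes. Such a switch, with no intron in a list of each side, was found in 32 of the 213 genes (15.02%, interval 10.9 to 20.4). Among them were Fanci (intron 12 with 526 and 168 reads against intron 36 with 21 and 535), Lpin2 (intron 8 with 37 and 16 against intron 4 with 217 and 76), Ears2, the mitochondrial glutamyl-tRNA synthetase (intron 1 with 989 and 92 against intron 3 with 894 and 12), and Lsm4, an RNA decay and splicing factor (intron 2 with 44 and 88 against intron 4 with 14 and 11). The genes after Cox11 are named after their values were seen.

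The other 6 of the 10 leading switches were as follows. Pi4ka, a phosphatidylinositol kinase, had 199 and 181 reads in intron 48 in neurons and 108 and 3013 in intron 7 in the other cells. Cntn5 had 82 and 126 in intron 23 against 264 and 267 in intron 9. Depdc5, a brake on mTORC1, had 276 and 82 in intron 22 against 335 and 151 in intron 14. In these 3 genes the neuronal intron lay downstream of the other. Phf14, a chromatin reader, had 1348 and 78 reads in intron 13 of 1 transcript against 4958 and 868 in intron 16 of another. Btaf1, which acts on the TATA-binding protein, had 66 and 100 in intron 33 against 1423 and 140 in intron 9, and Vps8, a tethering factor of endosomes, 84 and 54 in intron 20 against 288 and 65 in intron 13.

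**Figure D5:**
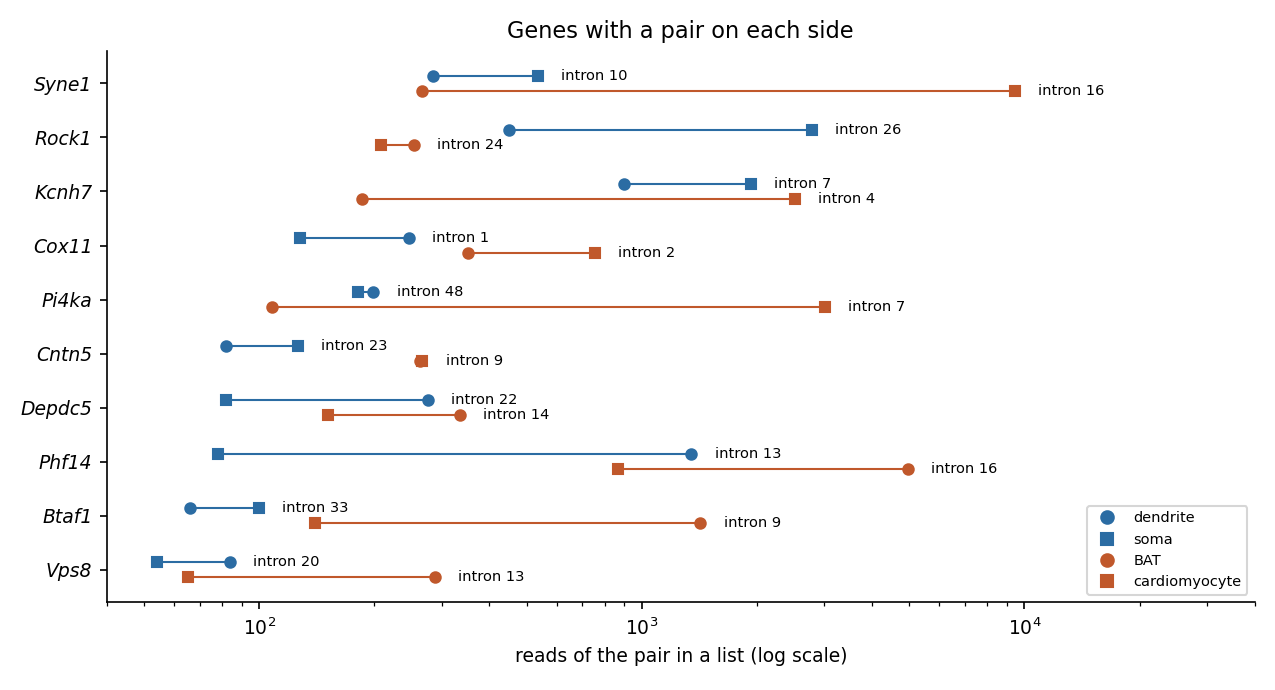
Reads (x axis, log scale) of the neuronal intron (blue, dendrites as circles and somas as squares) and of the non-neuronal intron (orange, BAT cells as circles and cardiomyocytes as squares) of the 10 leading switch genes, with the intron number beside each line. The widest line is that of intron 16 of Syne1, from 266 reads in BAT cells to 9457 in cardiomyocytes, and both lines of Cox11 and Vps8 stay at or below 753 reads.

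Mlh3, a DNA mismatch repair gene named in the study, was on the neuronal side only. Introns 10 and 2 were neuronal pairs, with 2 reads each in dendrites and 111 and 741 in somas, on contigs that did not overlap. Intron 5 was in dendrites alone, with 11 reads. In BAT cells the gene had intron 8 with 455 reads. The cardiomyocyte list used here held no intron of it, although the study describes reads from an intron of Mlh3 in these cells. Absence from the list does not show that these cells lack its introns. By these lists Mlh3 held no non-neuronal pair and was not among the 213 switch genes.

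Rat neurons were not used to choose the pairs. Hosts were matched by symbol to the lists of dendrites and somas of rat hippocampal neurons. These were also grown in culture, from hippocampi of Sprague-Dawley rats at embryonic day 18. Of the neuronal hosts 511 of 1188 (43.0%, interval 40.2 to 45.9) were in 1 of the rat lists, of the non-neuronal hosts 1197 of 2373 (50.4%, 48.4 to 52.5), and of all listed genes 36.0%. The neuronal share was the lower of the 2. The intervals of the shares overlapped with contigs of at most 400 nt (42.15 to 48.5 and 48.3 to 53.1), with at least 32 reads per intron (41.8 to 51.1 and 51.1 to 56.3) and in the rat soma list alone (26.45 to 31.6 and 30.8 to 34.6). Genes with more listed introns have more chances to be listed again. The hosts of both sides had a median of 5 listed introns against 3 over all genes. Among genes with 1 listed intron the shares were 17.8%, 24.6% and 19.7% for neuronal hosts, non-neuronal hosts and all. With 2 listed introns they were 36.5%, 37.2% and 29.8%, with 3 they were 28%, 43.8% and 39%, and with 4 they were 47.9%, 52.2% and 44.9%. Among genes with at least 5 they were 51.2%, 58.3% and 53.0%. The neuronal share thus lay above that of all genes with 2 and with 4 listed introns and below it in the other classes.

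The same intron number in the same gene recurred in rat for 113 neuronal pairs (8.37%, interval 7.01 to 9.97), 493 non-neuronal pairs (14.5%, 13.4 to 15.7) and 9.76% of all pairs with a symbol. Within genes that the rat lists held, the shares were 19.2% (16.2 to 22.6), 27.0% (24.98 to 29.1) and 21.1%. Transcripts of the species can number their introns differently, so equal numbers need not be the same intron. By this match the neuronal share did not exceed that of all mouse pairs. Whether single rat and mouse introns are the same sequence was not analysed here.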

How the data were processed

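The authors trimmed paired reads, aligned them to mm9 (NCBIM37) with RUM, used intronic reads with a unique position, left out introns that held a predicted gene, a poly(A) site or junction reads alone, and joined nearby reads into contigs, which lie at least 501 nt apart in the mouse lists. The deposited values are raw read counts per intron, pooled over libraries, without normalization. Read totals of libraries were not used here. The protocol did not keep strand, so antisense transcripts cannot be told apart. The files hold 0 columns of other samples.

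Counting used Python 3.11.15 with pandas 2.3.3, numpy 2.4.6 and scipy 1.17.1, sequence work pysam 0.24.0 and samtools 1.23.1, and plots matplotlib 3.10.9. The count of an intron is repeated on its contigs and was taken once per pair. All contigs were kept, whereas the study left out long contigs of somas, BAT cells and cardiomyocytes to limit nuclear RNA. Introns were placed on NCBIM37 with GENCODE vM1 (45835 of 46599 pairs), and host symbols were matched to RefSeq (12974 of 13156 transcripts), whose coordinates were not used. An intron counted as filled from 90% coverage. Shares carry 95% Wilson intervals and medians binomial order intervals. With 1 pooled list per condition no test between conditions was made. The counting was tested on simulated data.

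The members, the 13 function lists and the 9 marker lists were chosen with earlier results of these data known. Named genes were, per side, the 10 pairs with the highest smaller count, the 5 genes with most pairs, the 10 leading switch genes ranked by the smallest of 4 counts, Mlh3 and up to 4 hosts per function list. A few genes that this rule names are not reported here. The alternatives were limits on contig length, a minimum of reads, other keys for pairs, other summaries of reads, single rat lists, and other definitions of filled introns and of function lists.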

Additional observations from a re-analysis of the deposited data

How the results depend on the processing

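No paired analysis was possible because each list pools its libraries, and for the same reason no library could be left out. Of the alternatives to the main counts, shares and medians, 25 gave like values and 34 moved them. Like means within 1.5 times for a count and within the 95% interval of the main value for a share or median. With contigs of at most 400 nt in every list there were 1014 neuronal and 2045 non-neuronal pairs and 141 genes with pairs on both sides, the medians were 37 neuronal and 41 non-neuronal reads, and 79.4% of non-neuronal pairs had single contigs. With that limit in all lists but dendrites there were 1465 neuronal and 1845 non-neuronal pairs, and the medians were 57 and 37.5 reads. The order of the medians thus depended on this limit. Single contigs were then found in 82.1% of non-neuronal pairs, and 45.9% of neuronal hosts were in rat lists. With at least 32 reads for an intron to be listed there were 476 neuronal and 1860 non-neuronal pairs and 54 genes on both sides, with single contigs in 51.0% and 59.1%, medians of 187.2 and 412 reads and rat hosts at 46.4% and 53.7%. By overlapping position in place of intron number, 63.8% of neuronal and 68.6% of non-neuronal stretches had single contigs, with medians of 104.2 and 89.5 reads, so the order of the medians turned here too. With neuronal shares of 77.6% and 74.4% under the limits on contig length, the single-contig shares of the sides changed order under all 4 of these settings. By the smaller of the 2 lists the medians were 4 and 12 reads, and by the larger 117 and 130. The rat dendrite list alone held 34.7% of neuronal and 42.4% of non-neuronal hosts, and the rat soma list alone 29.0% and 32.7%. Alternatives for filled introns and function lists were added after seeing the data. When each list had to fill the intron, 0.227% of neuronal and 17.7% of non-neuronal pairs did, and at 80% coverage 2.12% and 32.8%. For shares of function lists, 58 alternatives gave like values and 26 moved them. Over all listed genes the non-neuronal share was the higher under each setting. The order turned to that for channel genes with contigs of at most 400 nt and for postsynaptic genes with at least 32 reads. The cause of these changes was not tested. Some listed pairs rest on 1 or 2 reads, so an intron absent from a list may lie below its depth.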
